A study of Mus musculus with 8 samples.

Results

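The Hox genes are a family of homeobox transcription factors, and 39 of the 24054 gene rows of the deposited soleus (SOL) table carry a Hox symbol of cluster a, b, c or d followed by a number. All 39 were taken as members by that symbol alone, whatever their values. The family itself was chosen with earlier results of these data known. The samples were SOL muscles of 8 male C57BL/6 mice that the labels describe as fed a high-fat diet, and each mouse gave 1 library. The 4 flox mice carried floxed Irf4 alleles without Cre and served as controls. The 4 MI4KO mice carried the same floxed alleles and Myl1-cre, which acts in skeletal muscle fibers, so that the other cells of the muscle kept Irf4. Ages were not given in the sources used here. The deletion of Irf4, a transcription factor of immune cells, fat and muscle, was carried by the same mice as Cre, so that the effects of the 2 cannot be told apart.

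Mammalian Hox genes lie in 4 clusters in which the order along the chromosome follows the order of expression along the body axis, with low numbers anterior and high numbers posterior. Genes with the same number in different clusters are paralogs that arose by duplication of an ancestral cluster. In the embryo the posterior groups pattern the limb, groups 9 and 10 the segment nearest the body and groups 11 to 13 the more distal ones, and adult limb tissues keep part of this code. Hox proteins bind DNA together with cofactors of the TALE homeobox class, while Polycomb and Trithorax complexes keep the genes silent or active.

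On the mouse assembly GRCm38 the Hoxa cluster lay on chromosome 6, the Hoxb cluster on chromosome 11 from 96194316 to 96368256, the Hoxc cluster on chromosome 15 from 102921103 to 103036852 and the Hoxd cluster on chromosome 2 from 74668310 to 74765142. A border in the Hoxd cluster lay between Hoxd9, which had at least 50 reads in every mouse, and its 5′ neighbor Hoxd10, which had 2 to 6 reads. The promoter sequences on the 2 sides of this border are shown because they belong to adjacent genes of unlike level. They come from RefSeq (GRCm38.p6, plus strand), end before the first annotated start, and have each CG dinucleotide in capitals, the site of DNA methylation in mammals. The Hoxd9 sequence spans chr2:74697513-74697726 and holds 10 CG in 214 bases, and the Hoxd10 sequence spans chr2:74691641-74691890 and holds 20 CG in 250 bases.
Hoxd9: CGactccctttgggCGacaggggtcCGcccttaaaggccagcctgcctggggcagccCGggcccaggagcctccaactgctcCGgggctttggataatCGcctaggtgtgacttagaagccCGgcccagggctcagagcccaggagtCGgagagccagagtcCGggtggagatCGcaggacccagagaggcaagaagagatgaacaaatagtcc
Hoxd10: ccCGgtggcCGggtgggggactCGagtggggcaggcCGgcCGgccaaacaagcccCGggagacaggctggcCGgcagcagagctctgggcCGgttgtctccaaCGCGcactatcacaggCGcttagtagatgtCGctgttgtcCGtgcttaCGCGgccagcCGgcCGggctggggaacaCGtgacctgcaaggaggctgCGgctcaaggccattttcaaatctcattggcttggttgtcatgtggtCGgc

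Each library held between 13417512 and 16384565 reads on genes, and between 2113 and 2629 of them fell on Hox genes. Values are reads divided by a TMM-scaled library size, as deposited by the authors, and 3 reads corresponded to a value of 0.181 to 0.225, which was taken as the detection limit. A pair of libraries stood apart. Flox mouse 1 carried the liver transcript Alb at 59.8, against at most 0.416 in the other mice, and MI4KO mouse 3 had Icam1, an adhesion molecule of activated endothelium, at 34.1 against at most 5.48. The fast myosin gene Myh4 ranged from 34.5 to 2496 among the mice without separating the groups. The slow myosin gene Myh7 was between 11079 and 14577 in every mouse. Fast transcripts were also high, and the fast myosin gene Myh2 was above Myh7 in every mouse (means 14941 and 12262). The fast troponin genes Tnnt3 and Tnni2 had means of 9082 and 4463, against 3910 and 2004 for the slow Tnnt1 and Tnni1. The fast myosin genes Myh1 and Myh4 had lower means than Myh7, at 4695 and 964. The muscles thus held abundant transcripts of slow and of fast fibers. Irf4 itself was low. The flox mice were at 0.686, 1.46, 1.58 and 1.68, and the MI4KO mice were at 0.725, 0.840, 0.266 and 1.03, so that flox mouse 1 lay inside the MI4KO range. With 4 to 23 reads per mouse, Irf4 differed by -0.45 on the log2 scale of value + 1 (standard error 0.20, limma unadjusted p = 0.040, adjusted p = 1.0). An exact permutation test of the 4 against 4 values gave p = 0.11. The means were 1.35 in flox and 0.715 in MI4KO mice, and the scale of value + 1 understates fold changes of low genes.

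Hindlimb identity was checked with the T-box genes Tbx4 and Tbx5, which mark the hindlimb and the forelimb in the embryo. Tbx4 was between 3.43 and 5.61 in the 8 mice, whereas Tbx5 was between 0 and 0.133, at most 2 reads. Pitx1, the upstream hindlimb regulator, was only at 0.0665 to 0.364.

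Of the 39 Hox genes, 25 were detected, which here means at least 3 reads in every mouse, and 17 passed the filter for testing, which asked for 4 or more mice with a value no lower than 1. The Hoxa cluster had 10 of 11 members detected and 8 tested. The Hoxc cluster had 7 of 9 detected, and all 7 were tested. The Hoxd cluster had 3 of 9 detected and 2 tested, and the Hoxb cluster had 5 of 10 detected and none tested. No read fell on Hoxb1, Hoxb13, Hoxc12, Hoxd1, Hoxd12 or Hoxd13 in any mouse, which allows a value of up to 0.225 in a library.

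Levels of different genes were compared as the value per kilobase (kb) of merged exon length. On this scale the Hoxc cluster made up 63.9 to 68.5% of the summed Hox level of a mouse, the Hoxa cluster 20.8 to 22.8%, the Hoxd cluster 8.27 to 11.7% and the Hoxb cluster 1.70 to 4.31%. The shares did not overlap between clusters in any of the 8 mice. By paralog group, group 10 held 52.3 to 57.8%, group 9 held 10.9 to 12.9%, group 4 held 8.61 to 10.6% and group 8 held 6.17 to 7.87%. Each of the other 9 groups held at most 5.35% in any mouse, and group 12 had no read at all.

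**Figure D1:**
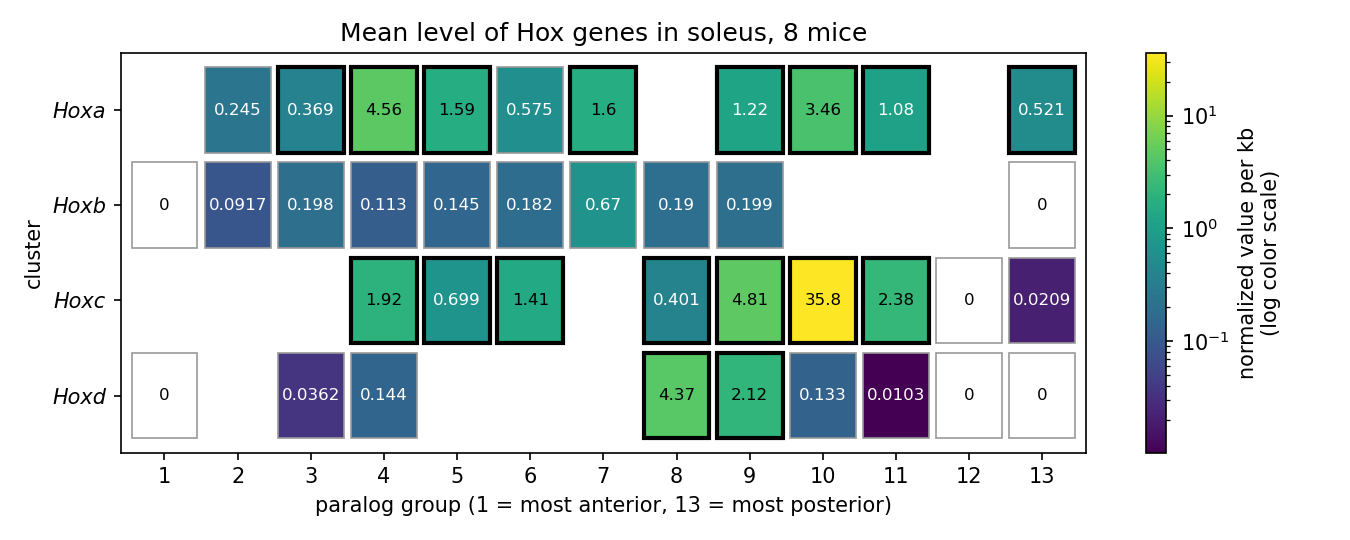
Mean value per kb over the 8 mice for the Hox genes reported here, by cluster (rows) and paralog group (columns), on a log color scale with the mean printed in each square. Thick frames mark the 17 tested genes, white squares with 0 the 6 genes without reads, and blank places genes that are not shown or do not exist. The single bright square is Hoxc10 at 35.8 per kb, and the whole Hoxb row is at or below 0.670.

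Hoxc10, a posterior gene of the lumbosacral trunk and hindlimb, was the main Hox transcript of SOL. The flox mice were at 72.6, 70.7, 68.4 and 65.1, and the MI4KO mice were at 67.5, 59.3, 77.2 and 66.0. The groups overlapped, and the whole range spanned 59.3 to 77.2. Per kb, Hoxc10 alone was 47.4 to 52.6% of the summed Hox level and lay 6.50 to 7.54 times above the next member in each mouse. It took 40.9 to 45.3% of all Hox reads. Among the 11320 tested genes with an annotated length, its mean level per kb stood at percentile 91.1, while Hoxc9 stood at percentile 57.6, Hoxd8 at 55.3, Hoxa10 at 49.9 and Hoxa13 at 10.8. Only 4 of the 17 tested members lay above the median of those genes, 3.48 per kb.

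The other genes of groups 9 to 11 were expressed at lower levels than Hoxc10 per kb, with means of 4.81 for Hoxc9, 3.46 for Hoxa10, 2.38 for Hoxc11, 2.12 for Hoxd9, 1.22 for Hoxa9 and 1.08 for Hoxa11. Hoxa10, a paralog of Hoxc10 that patterns the thigh segment, was at 12.1, 11.4, 11.7 and 12.2 in flox mice and at 12.0, 10.3, 11.1 and 9.79 in MI4KO mice (values not divided by length). Hoxc9 was at 12.4, 11.9, 10.3 and 11.7 in flox mice and at 12.4, 10.9, 13.5 and 10.5 in MI4KO mice. For Hoxc9 the 2 groups covered nearly the same range. Hoxc11 was at 4.30, 4.99, 5.03 and 5.25 in flox mice and at 4.35, 4.33, 5.25 and 5.02 in MI4KO mice. Hoxa11, a gene of the lower leg segment, was at 2.87, 2.71, 1.80 and 2.26 in flox mice and at 1.45, 2.59, 3.32 and 2.72 in MI4KO mice. In neither gene did the groups separate. The annotated exons of Hoxa11 share 800 bases with the antisense transcript Hoxa11os, so that its reads are uncertain unless counting used the strand. Antisense overlaps also occurred in other members, among them Hoxa7 with 586 bases and Hoxa4 with 255 bases.

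In the Hoxd cluster a pair of neighbors was on between low genes. Hoxd8 was at 11.7, 10.9, 10.9 and 14.1 in flox mice and at 9.87, 11.6, 13.6 and 13.3 in MI4KO mice. Hoxd9 was at 4.30, 3.61, 4.35 and 5.68 in flox mice and at 3.63, 4.59, 5.25 and 4.77 in MI4KO mice. The next gene on the 5′ side, Hoxd10, was at 0.125, 0.208, 0.300 and 0.437 in flox mice and at 0.363, 0.129, 0.133 and 0.242 in MI4KO mice. Per kb, Hoxd9 was 8.50 to 33.6 times Hoxd10 in the same mouse. On the 3′ side the mean level per kb stepped from 4.37 for Hoxd8 to 0.144 for Hoxd4. Hoxd11 had 0 to 2 reads, and Hoxd12 and Hoxd13, the digit genes at the 5′ end, had none. The Hoxc cluster had a like border between Hoxc11 and Hoxc12, and Hoxc13 had 0 to 2 reads. The Hoxa cluster had no such border, and Hoxa13, a gene of the foot, was at 1.37, 1.25, 1.35 and 0.583 in flox mice and at 1.45, 1.1, 1.4 and 1.81 in MI4KO mice. It was the only tested member of group 13.

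Among genes of the middle groups, Hoxa7 was at 4.18, 4.58, 5.18 and 4.15 in flox mice and at 5.01, 4.65, 4.65 and 4.41 in MI4KO mice. Hoxc6, which in the embryo marks the trunk at the level of the forelimb, was at 2.74, 3.05, 4.28 and 2.84 in flox mice and at 3.34, 3.81, 4.19 and 2.84 in MI4KO mice. Hoxc8 was at 0.561, 1.66, 1.5 and 0.874 in flox mice and at 1.16, 0.970, 1.33 and 1.03 in MI4KO mice. Its 4 MI4KO values lay inside the flox range. Hoxa6 and Hoxb7 were detected but not tested, with values of 0.277 to 0.874 and of 0.725 to 1.94.

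Anterior Hox genes were also on, mostly those of groups 4 and 5. Hoxa4, a gene of the neck region in the embryo, was at 7.23, 7.49, 8.78 and 5.76 in flox mice and at 6.38, 6.66, 8.71 and 7.13 in MI4KO mice. Its mean level per kb, 4.56, was next to that of Hoxc9, and Hoxa4 was the lower of the pair in 6 of 8 mice. Hoxc4 was at 4.74, 5.55, 4.88 and 5.76 in flox mice and at 5.01, 3.94, 4.92 and 4.71 in MI4KO mice. Hoxa5 was at 3.12, 2.15, 2.78 and 2.62 in flox mice and at 2.76, 2.91, 5.05 and 2.42 in MI4KO mice. Its highest value came from MI4KO mouse 3, 1 of the libraries that stood apart. Hoxc5 was at 2.12, 2.15, 2.55 and 2.48 in flox mice and at 1.81, 2.13, 2.46 and 1.57 in MI4KO mice. Its annotated exons share 166 bases with the far higher Hoxc10 on the same strand, so that its reads are uncertain even if counting used the strand. Hoxa3 was at 1.68, 2.64, 2.40 and 2.40 in flox mice and at 2.25, 2.0, 1.79 and 2.60 in MI4KO mice. Hoxa2 was detected at 0.187 to 0.656.

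None of the Hoxb genes reached the filter. Hoxb7 was the highest of them per kb, and its reads per mouse numbered 10 to 30. Hoxb3 was at 0.544 to 1.36, Hoxb5 at 0.266 to 0.711, Hoxb8 at 0.219 to 0.840 and Hoxb9 at 0.249 to 0.971. Hoxb2, Hoxb4 and Hoxb6 had at least 2 reads in every mouse but fewer than 3 in some, with maxima of 0.437, 0.486 and 0.694. In the Hoxd cluster, Hoxd4 was detected at 0.242 to 0.832, and Hoxd3 had 1 to 4 reads.

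Ordered by mean level per kb, the 17 tested genes ran Hoxc10, Hoxc9, Hoxa4, Hoxd8, Hoxa10, Hoxc11, Hoxd9, Hoxc4, Hoxa7, Hoxa5, Hoxc6, Hoxa9, Hoxa11, Hoxc5, Hoxa13, Hoxc8 and Hoxa3. Of the 16 pairs of neighbors in this order, only Hoxc10 with Hoxc9 and Hoxa10 with Hoxc11 had ranges apart and kept their order in all 8 mice, while the ranges of the other 14 pairs overlapped and the gene with the higher mean was above its neighbor in 5 to 7 of the 8 mice. Hoxc10 also led when the length of the longest transcript or of RefSeq-paired transcripts was used, whereas Hoxd8, at 7.27 per kb, took the next place with RefSeq-paired lengths.

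**Figure D2:**
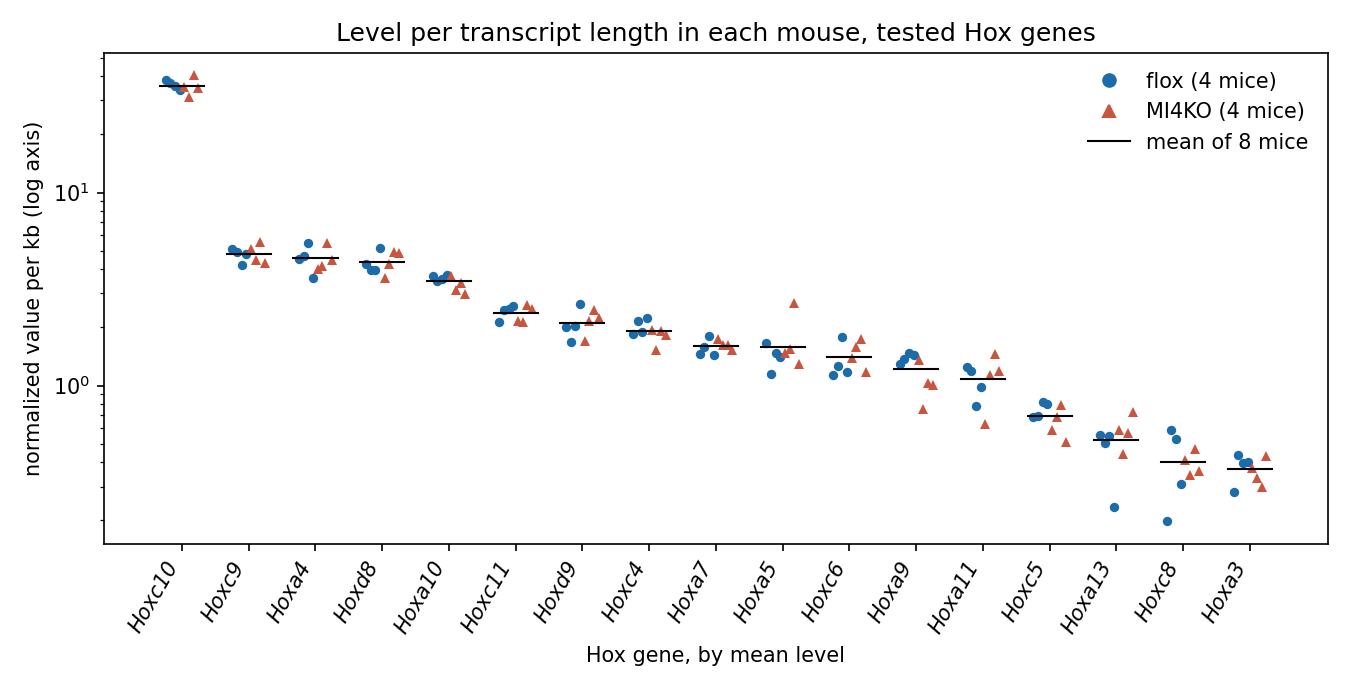
Value per kb (log axis) of the 17 tested Hox genes in each of the 4 flox mice (circles) and 4 MI4KO mice (triangles), with the mean of the 8 mice as a line. Hoxc10 lies apart from the rest at 31.1 to 40.5, the next 4 genes lie above the other 12 in mean, with a gap in range between Hoxa10 and Hoxc11, and the groups overlap in every gene.

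Paralogs of a group differed in level. For each of the 20 pairs of detected genes with the same number, the difference in log2 value per kb was tested over the 8 mice with an exact two-sided sign-flip permutation test. All 20 pairs gave p = 0.0078, the smallest value that 8 mice allow, and the Benjamini-Hochberg adjusted p was also 0.0078 by this exact test, since in every pair the same gene was higher in all 8 mice. Among the pairs in which both genes were tested, the largest log2 difference was -3.51 for Hoxc8 minus Hoxd8 (SD 0.57, n = 8 mice), and the next was -3.37 for Hoxa10 minus Hoxc10 (SD 0.13). In group 9, Hoxc9 minus Hoxd9 was 1.19 (SD 0.27) and Hoxa9 minus Hoxc9 was -2.01 (SD 0.35). Hoxa4 minus Hoxc4 was 1.24 (SD 0.28), Hoxa5 minus Hoxc5 was 1.15 (SD 0.35), and Hoxa11 minus Hoxc11 was -1.18 (SD 0.38). The Hoxa paralog was thus the higher in groups 4 and 5, and the Hoxc paralog in groups 9, 10 and 11. With other transcript lengths 19 of the 20 pairs kept their direction. The exception was Hoxa9 with Hoxd9, which differed by -0.81 with merged exons, by -0.024 with the longest or the RefSeq-paired transcripts, and by 0.57 without division by length.

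The spread between mice was near the counting error for most of these low counts. The coefficient of variation (CV) over the 8 mice had a median of 15.8% for the 17 tested Hox genes and 11.4% for all 11865 tested genes, and counting alone gives medians of 12.1% and 6.48% at their mean read numbers. The ratio of the observed CV to the counting CV had a median of 1.28 in the Hox genes and 1.72 in all tested genes. For 12 of the 17 genes the observed CV was less than 1.5 times the counting CV, and for 5 of them it was below it. Hoxc10, with 894 to 1165 reads per mouse, had a CV of 7.83% against a counting CV of 3.14%, the highest ratio at 2.49. Hoxa9 had 21.0% against 10.03%, and Hoxa5 had 29.9% against 15.1%.

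**Figure D3:**
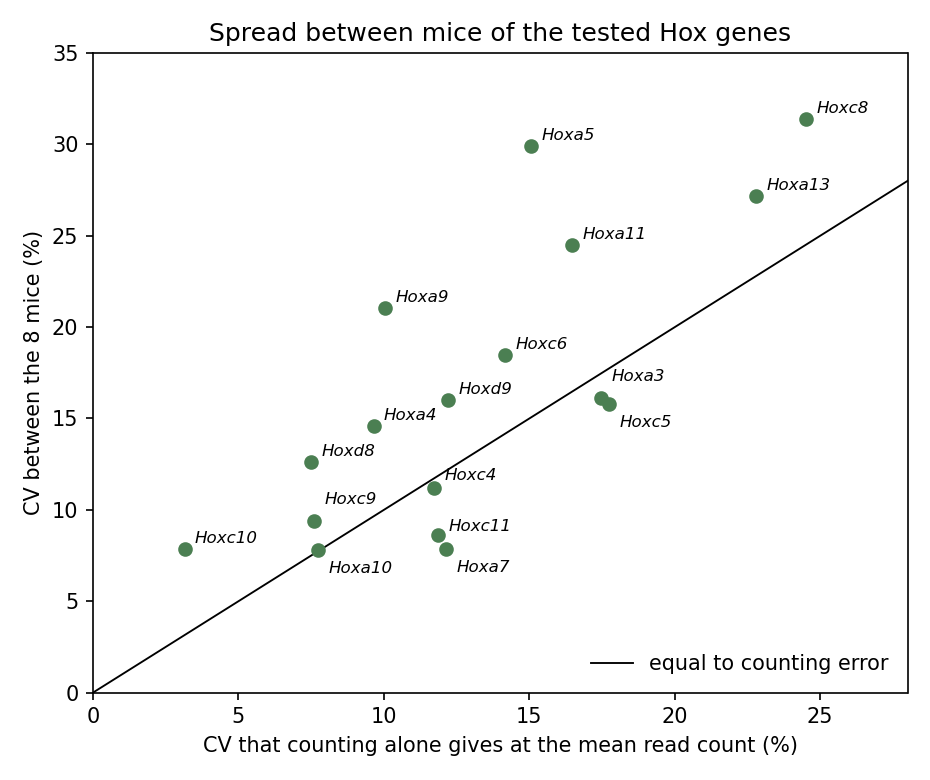
CV of the value over the 8 mice (%) against the CV that counting alone gives at the mean read number (%), 1 point per tested Hox gene, with a line where both are equal. Hoxa5, Hoxa9 and Hoxc10 lie at about or above 2 times the counting CV, with 29.9, 21.0 and 7.83%, and 5 genes lie below the line.

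To ask whether Hox genes varied together from mouse to mouse, log2 values were correlated over the 8 mice for all 136 pairs of tested genes. The median Pearson r was 0.084. It was 0.16 for the 50 pairs within a cluster and 0.068 for the 86 pairs across clusters. No pair passed an adjusted p of 0.05 by the exact permutation test, with Pearson's r or Spearman's rho, and 5 pairs did so before adjustment by Pearson's r. The highest Pearson correlation was that of the neighbors Hoxd8 and Hoxd9, with r = 0.92 (exact permutation p = 0.0010, adjusted p = 0.13) and rho = 0.83 (exact permutation p = 0.015, adjusted p = 0.70). Without the 2 mice farthest from the median of Hoxd8, r was 0.83. By rank the strongest correlation was negative, that of Hoxa3 and Hoxa5 in the same cluster. Its rho was -0.95 (exact permutation p = 0.0011, adjusted p = 0.16) and its r was -0.76 (exact permutation p = 0.0087, adjusted p = 0.56). Hoxa7 and Hoxc6, of different clusters, also had a rho of 0.83.

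The comparison of MI4KO with flox mice asks whether loss of Irf4 in muscle fibers altered the Hox code. By the limits of the study, an unadjusted p under 0.05 and at least a 1.5-fold change, limma called 0 of the 17 tested Hox genes, and 26 of 11865 genes (0.219%). At an unadjusted p under 0.05 alone, limma picked 1 Hox gene, Hoxa9, against 3.36% of all genes, or 2.95% when only genes lower in MI4KO are counted. At an adjusted p under 0.05, limma called none of the Hox genes and 0% of all genes. None of the 17 had groups that did not overlap, compared with 2.07% of all genes. The edgeR quasi-likelihood test and DESeq2 on recovered reads likewise called 0 Hox genes by the limits of the study and had Hoxa9 alone at an unadjusted p under 0.05. In a whole muscle, fewer cells of a type and less RNA per cell cannot be told apart.

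The log2 fold changes of the 17 genes ran from -0.40 to 0.20 with a median of 0.011, while the median over all tested genes was -0.015. There were 9 genes with a positive and 8 with a negative estimate. For 16 of the 17, the 95% confidence interval excluded a 1.5-fold change in either direction on the log2 scale of value + 1, which narrows the intervals of low genes. With a pseudocount of 0.1 it did so for 12, and the intervals of Hoxa5, Hoxa13, Hoxc5 and Hoxc8 reached the limit as well as that of Hoxa9. The log2 fold change of Hoxa13 was then 0.36, with an interval of -0.29 to 1.01, against 0.20 with a pseudocount of 1. Over the limma alternatives that kept mice of both ranges of mouse numbers, 12 to 16 intervals excluded that change. The fit within the higher range alone, given below for Hoxa9, was not part of that count. Its log2 fold changes of Hoxa5 and Hoxa13 were 0.38 and 0.35, with larger standard errors of 0.24 each. Hoxc10 was at 69.2 ± 3.23 in flox and at 67.5 ± 7.39 in MI4KO mice (SD, n = 4), with a log2 fold change of -0.040 and an interval of -0.22 to 0.14. For Hoxa10 the interval was -0.33 to 0.080, for Hoxc9 -0.20 to 0.25 and for Hoxd8 -0.24 to 0.28. The interval of Hoxa5, -0.19 to 0.577, came nearest to the limit of 0.585, and its log2 fold change went from 0.19 to 0.015 without MI4KO mouse 3.

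**Figure D4:**
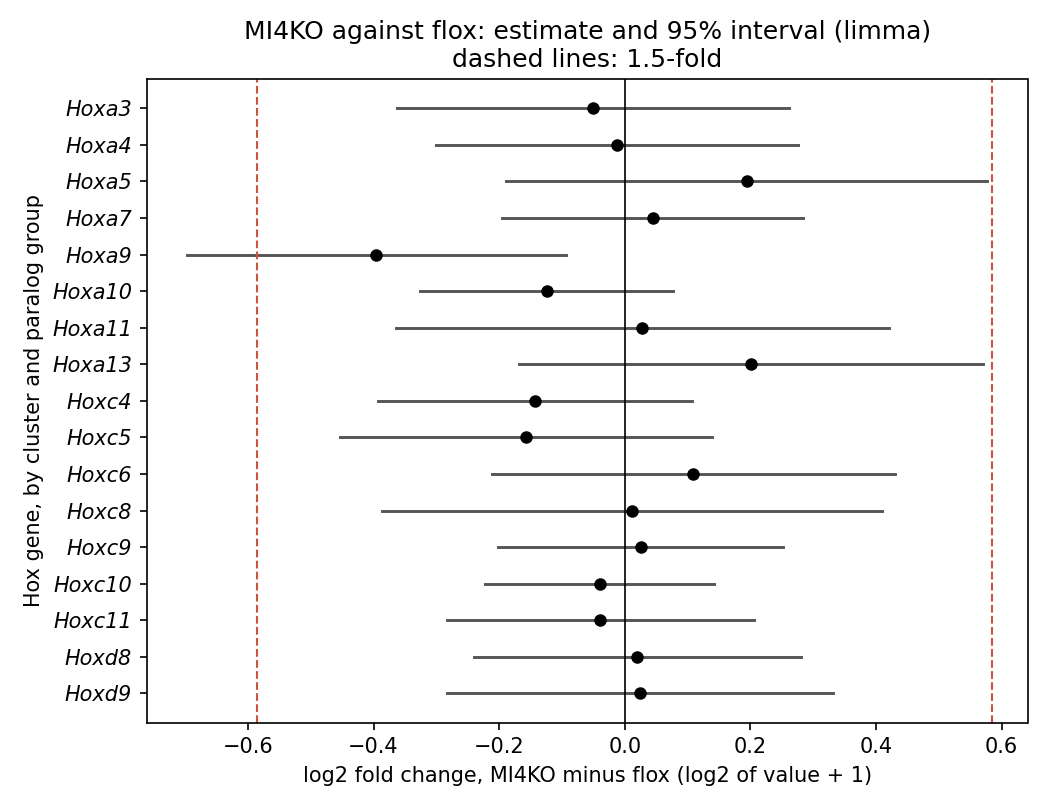
Log2 fold change of MI4KO against flox (value + 1) for the 17 tested Hox genes, with the 95% confidence interval from limma; dashed lines mark a 1.5-fold change. The interval of Hoxa9, -0.70 to -0.093, lies wholly below 0 and reaches past the dashed line, and the other 16 intervals include 0 and stay inside the lines at this pseudocount of 1.

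Hoxa9, which acts with Hoxa10 in the limb segment nearest the body and in blood progenitors, had the largest difference. The flox mice were at 7.23, 7.70, 8.25 and 8.01, and the MI4KO mice were at 7.54, 4.20, 5.78 and 5.62. Of the MI4KO mice, 3 lay below all flox mice and MI4KO mouse 1 lay among them, so that the groups overlapped. The log2 fold change was -0.40 (standard error 0.14, interval -0.70 to -0.093, limma, unadjusted p = 0.014, adjusted p = 1.0). An exact permutation test of the 4 against 4 values, two-sided, gave p = 0.057, where 0.029 is the smallest p possible. This difference did not pass correction over all genes. The estimate was negative with an unadjusted p under 0.05 in each of the 17 alternatives run, from -0.51 without MI4KO mouse 1 to -0.27 without MI4KO mouse 2. The mouse numbers in the labels fall in a pair of ranges of unstated meaning, and within the 5 mice of the higher range limma gave -0.42, while the lower range held a single flox mouse. The exons of Hoxa9 contain the hairpin of Mir196b, 85 bases, and Hoxa10 is the adjacent gene.

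**Figure D5:**
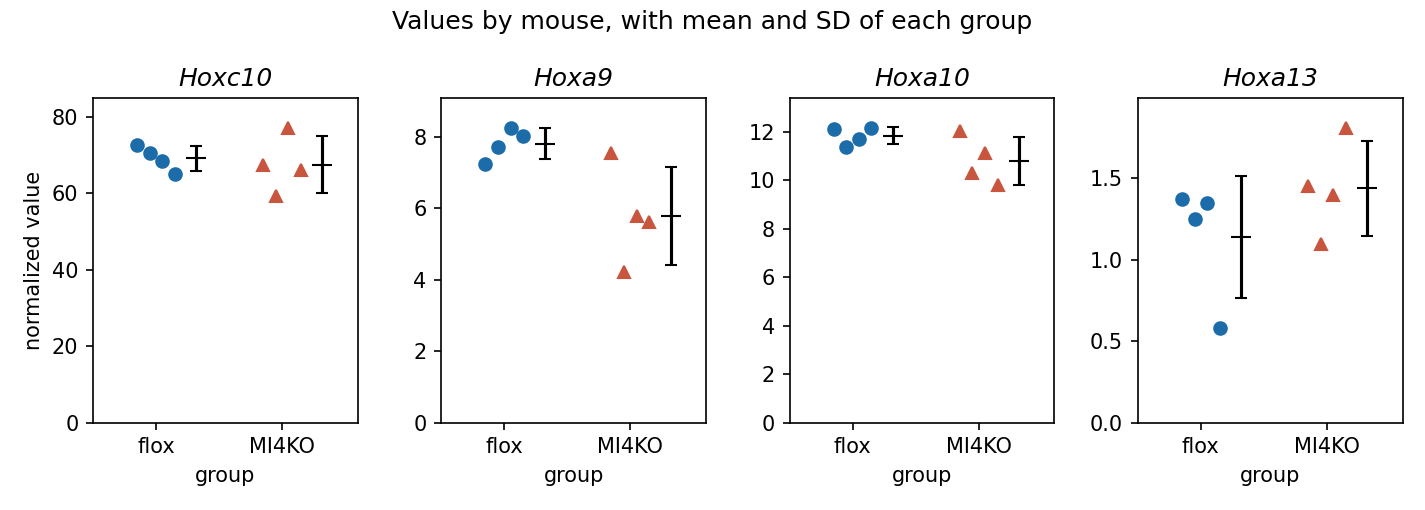
Values of Hoxc10, Hoxa9, Hoxa10 and Hoxa13 in each flox mouse (circles) and MI4KO mouse (triangles), with the mean and SD of each group (4 mice) at the right of its points. Hoxa9 shows 3 MI4KO mice below all flox mice and 1 among them, Hoxc10 groups overlap fully, and 1 flox mouse is low in Hoxa13 at 0.583.

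Endothelial markers were also lower in some MI4KO mice. The 4 markers, all detected, summed to 287.9 to 337.4 in flox mice, against 212.8 to 301.8 after the deletion. Cdh5 and Kdr, the junction protein and the growth factor receptor of vessels, passed an unadjusted p of 0.05 by limma (adjusted p = 1.0 for each). Pecam1 and Tek did not (limma unadjusted p = 0.30 and 0.087), and Pecam1 was highest in MI4KO mouse 3, at 122.8. Of all tested genes, 3.36% passed that limit, and 2.95% passed it while lower in MI4KO. The lowest sum was that of MI4KO mouse 1, the mouse with the highest Hoxa9 of its group. The part of endothelium in the Hoxa9 difference was not tested. The summed markers of slow fibers, fast fibers, satellite cells, fibroblasts, tendon, pericytes and smooth muscle, Schwann cells, macrophages and adipocytes overlapped between the groups, and none of their genes passed an unadjusted p of 0.05 by limma. The summed fibroblast markers ranged over 209.3 to 274.3 in the flox group and over 186.1 to 270.9 in the MI4KO group. Some markers of other tissues were near 0. The kidney list was at 0, the summed cartilage and bone markers were at most 0.312, and the skin keratins Krt5 and Krt14 were at most 0.146. The third skin keratin, Krt10, was at 2.0 to 2.70 in the 8 mice, and the tendon genes Thbs4 and Scx were at 28.4 to 39.8 and at 6.53 to 11.8, with groups that overlapped. The part of skin and tendon in the Hox levels was not tested. Lor, a gene of the outer skin layer, had groups that did not overlap, with 1 to 4 reads per flox mouse and at most 1 per MI4KO mouse.

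The cofactors of the Hox proteins were on. All 9 TALE genes of the list had reads, 6 were tested, and 0 were called or had an unadjusted p under 0.05 by limma, with a median log2 fold change of -0.031. Pknox2 was between 25.9 and 43.4 in the 8 mice, Pbx2 between 17.8 and 21.9, and Pknox1 between 10.8 and 15.4. Meis1, the partner of posterior Hox proteins, was lower at 3.19 to 5.55.

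Of 18 genes of limb identity and limb muscle patterning, 10 were tested and 0 were called, and their median log2 fold change was -0.12. Lbx1, a transcription factor of migrating limb muscle precursors, was at 23.6 to 36.0, Tbx3 at 15.3 to 30.6 and Six4 at 19.3 to 26.9. Tbx2 had an unadjusted p of 0.034 by limma (log2 fold change -0.37, adjusted p = 1.0). Pitx1 had groups that did not overlap, with flox mice at 0.312, 0.347, 0.300 and 0.364 and MI4KO mice at 0.0725, 0.194, 0.0665 and 0.242. These values stand for 4 to 5 reads per flox mouse and 1 to 4 per MI4KO mouse, and the gene was not tested. The sum over the list ranged over 214.2 to 222.5 in the flox group and over 194.3 to 212.9 in the MI4KO group, without overlap.

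All 25 Polycomb and Trithorax regulators were tested and 0 were called by limma. Their median log2 fold change was -0.037. Kmt2d, a methylase of active enhancers, was at 51.6 to 79.8, Ash2l at 45.1 to 52.1, the Polycomb methylase Ezh1 at 37.0 to 48.3 and the demethylase Kdm6b at 26.0 to 47.3. Ezh2, the paralog of Ezh1 typical of dividing cells, was at 3.26 to 4.65. Jarid2, a Polycomb cofactor, had a log2 fold change of -0.36 (limma unadjusted p = 0.015), with a limma adjusted p of 1.0. Tbx2 and Jarid2 are named because of these values.

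Noncoding transcripts of the clusters were low. Of 23 on the list, 14 had a row, 7 of these were at 0 in every mouse, and 2 were tested and not called. Mira was at 2.81 to 5.54, and Hoxa11os was at 1.29 to 2.19. Hotair, an RNA transcribed between Hoxc11 and Hoxc12, was detected in every mouse at 0.290 to 0.997, at the border of the active part of the Hoxc cluster. Hoxd3os1 was at 0 to 0.375. Hairpins of the cluster miRNAs were at or near 0 in these poly(A) libraries. Outside the clusters, 6 of 11 listed neighbors with a row were tested and 0 were called. Beyond the 3′ side of the Hoxd cluster, Mtx2 was at 63.1 to 68.9, and Lnp, on its 5′ side, was at 49.5 to 69.1. Cbx5 and Smug1, next to the Hoxc cluster, were at 33.0 to 40.1 and at 7.14 to 9.70. Evx1 and Evx2, the homeobox genes at the 5′ ends of the Hoxa and Hoxd clusters, had no read in any mouse. Hoxd12, Hoxd13 and Evx2, without reads, thus lay between Hoxd9 and Lnp, both of which were on.

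Promoter sequences were at hand for 22 members, with 24 entries of 250 bases before the start. From the Hoxc cluster only Hoxc4 had an entry, so that Hoxc10 and the other tested Hoxc genes were missing. Most entries of tested genes came from the Hoxa cluster and most of the others from the Hoxd cluster. Level and cluster thus cannot be told apart in these counts. The 11 entries of tested genes held a median of 13 CG (3 to 35), and the 13 entries of the other members held a median of 12 (2 to 31), while the median over all 32851 mouse promoters of this length was 6. Hoxd13, without reads, had 31 CG, and Hoxa9, which was on, had 3. The letters TGATNNAT, the core of sites bound by Hox and PBX proteins together, were searched on both strands, with N for any base. They occurred in 0 of 11 entries of tested genes, in 4 of 13 entries of the others and in 7.68% of all promoters.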

How the data were processed

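RNA from SOL of 4 MI4KO and 4 flox mice was sequenced from stranded mRNA libraries with single 50 bp reads. The authors mapped reads to the UCSC transcript set (mm10) with Bowtie2 2.1.0, estimated gene expression with RSEM 1.2.15 after demultiplexing with bcl2fastq 2.17, and deposited a TMM-normalized signal per gene and mouse. The strand setting of RSEM was not given in the sources used here. The deposited table also held the fold change, p-value and FDR of the authors, which were not used. Every value was a whole multiple of the value of 1 read in its library (100% of values within 0.01 read), and the recovered counts summed to between 13417512 and 16384565 per library. Detection limits cover counting error only.

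Values were tested as log2(value + 1) with limma 3.58.1 (R 4.3.3) and its mean-variance trend. The 11865 genes tested reached a value of 1 in 4 or more mice. A fold change on this scale understates that of low genes. Calls followed the limits of the study, p under 0.05 and at least 1.5-fold, with Benjamini-Hochberg adjustment over all genes. On the recovered reads edgeR 4.0.16 called 65 genes and DESeq2 1.42.0 called 51 by the same limits. The scripts were tested on simulated data. Lengths and exon overlaps came from GENCODE M21 (GRCm38). The alternatives were another pseudocount, no filter, other scalings, no trend, a covariate for the range of mouse numbers, other lengths, each mouse left out, and, chosen after seeing the data, RefSeq-paired lengths and a fit without flox mouse 1 and MI4KO mouse 3. Hox members passing the filter were named with every value, the others with their range, and of each gene list the 4 with the highest mean, plus any called or not overlapping between groups; some genes are not reported here. The members and lists were chosen with earlier results of these data known.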

Additional observations from a re-analysis of the deposited data

Results flagged for a closer look

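Each of the 17 tested Hox genes was examined in each group of 4 mice for a mouse set apart from the other 3 by Dixon's criterion, 34 groups in all, and 1 was found. Hoxa13 in flox mouse 4 was at 0.583, below the other flox mice at 1.25 to 1.37, with a gap of 0.868 of the group's range, above the 95% critical value. Chance sets a mouse apart in about 1 in 20 groups. The value rests on 8 reads, and without that mouse the log2 fold change of Hoxa13 went from 0.20 to 0.063.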

How the results depend on the processing

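No Hox gene was called by the limits of the study in any of the 17 alternatives, Hoxa9 kept its direction and an unadjusted p between 0.0016 and 0.050 in each, and its adjusted p was between 0.89 and 1.0. The number of called genes over the whole table, 26, was 71 with a pseudocount of 0.1, 65 by edgeR, 51 by DESeq2, 41 without flox mouse 1 and MI4KO mouse 3, and 19 to 58 with each mouse left out, the last without MI4KO mouse 4; the cause was not tested. Requiring 10 reads in every mouse left 16 Hox genes detected. Of 289 alternative log2 fold changes of the 17 genes, 255 kept their sign, and 34, in 10 genes, changed it. These counts leave out the fit within the higher range of mouse numbers. In that fit Hoxa7, at 0.044 in the main fit, was -0.023. There the signs of Hoxa4 (0.11), Hoxc8 (-0.094), Hoxc10 (0.069) and Hoxc11 (0.011) also changed. Hoxa4, at -0.012, was 0.0055 with median-of-ratios factors, 0.026 with library size and 0.022 with mouse number range as a covariate. Hoxc10 was 0.0034 with library size and Hoxc11 0.011 with the covariate. Hoxc8 was -0.013 by edgeR and -0.015 by DESeq2. Without flox mouse 1 and MI4KO mouse 3, Hoxa11 was -0.016, Hoxc6 -0.012, Hoxc8 -0.18, Hoxc9 -0.0039, Hoxd8 -0.041 and Hoxd9 -0.047. With each mouse left out, Hoxa3 ran from -0.14 to 0.0065, Hoxa4 from -0.11 to 0.070, Hoxa11 from -0.081 to 0.19, Hoxc8 from -0.13 to 0.13, Hoxc9 from -0.036 to 0.077, Hoxc10 from -0.11 to 0.019, Hoxd8 from -0.035 to 0.11 and Hoxd9 from -0.056 to 0.12. The log2 difference of Hoxa9 and Hoxd9 was -0.024 with the longest or the RefSeq-paired transcripts and 0.57 without length. No paired analysis was possible because the labels give the groups no shared replicate numbers. Members with fewer than 10 reads can show only large differences.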
